A study of Mus musculus with 2 samples.

Results

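Mir143 and Mir145a are a pair of microRNA genes that lie side by side on mouse chromosome 18. The rule that chose them used their gene names in the GENCODE M21 annotation and no counts, but earlier results of these data were known. They make up 2 of the 2202 microRNA genes counted in each library. The libraries hold short RNA from whole hearts of male B6CASTF1/J mice, an F1 cross between the laboratory strain C57BL/6J and the wild-derived strain CAST, at 10 days of age. No treatment or engineered allele is named in the labels. There are 2 libraries, numbered as biological replicates 2 and 1 of a single group, so the data hold no contrast between conditions. The labels name a differently numbered male for each library but give both the same donor identifier. A p-value below measures the difference between these 2 libraries against counting error.

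The microRNAs miR-143 and miR-145 are processed from one primary transcript and are best known from smooth muscle, the contractile layer of blood vessels. In that lineage the serum response factor and its partner myocardin switch the cluster on. In mice miR-145 restrains Klf4 and Klf5, factors of the proliferative state, and miR-143 restrains Elk1, so the cluster favours the contractile state. In the embryonic mouse heart the cluster is also active in cardiac progenitors before it becomes largely a smooth muscle product. Whole heart RNA mixes muscle, vessel, stromal and blood cells, and in such a mixture fewer cells of a type and less RNA per cell cannot be told apart. Of 7 listed cardiac muscle microRNA genes 6 were detected, among them Mir499, Mir208a and Mir208b, as the labelled tissue has them. Counts were low for Mir1a-1 (19 in replicate 2, 13 in replicate 1) and Mir133a-1 (27 and 10), and Mir133a-2 (4 and 2) was not detected. The Mir1a and Mir133a hairpins share sequence with other hairpins, which leaves their levels uncertain. Protein-coding markers of smooth muscle were not analysed here.

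Mir143 (ENSMUSG00000065445.3) spans 63 bases at chromosome 18, 61649196 to 61649258, on the minus strand (mm10). Mir145a (ENSMUSG00000065592.2) spans 70 bases at chromosome 18, 61647825 to 61647894, on the same strand. Since the strand is minus, Mir143 is the upstream gene in the direction of transcription, and 1301 bases separate the hairpins. GENCODE M21 places both between genes rather than inside one. The long non-coding RNA Carmn, known from smooth muscle and cardiac differentiation, ends 366 bases upstream of Mir143 there, with 2 transcripts. RefSeq draws Carmn longer (chromosome 18, 61645878 to 61665538, GRCm38.p6), so that both hairpins fall within its bounds and it runs 1947 bases past Mir145a. The non-coding RNA Bvht, described in mouse cardiac commitment, lies on the opposite strand with its 3′ end 352 bases from Mir145a. Whether the members count as intergenic or as part of a host gene thus depends on the annotation, and the counts themselves do not.

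**Figure D1:**
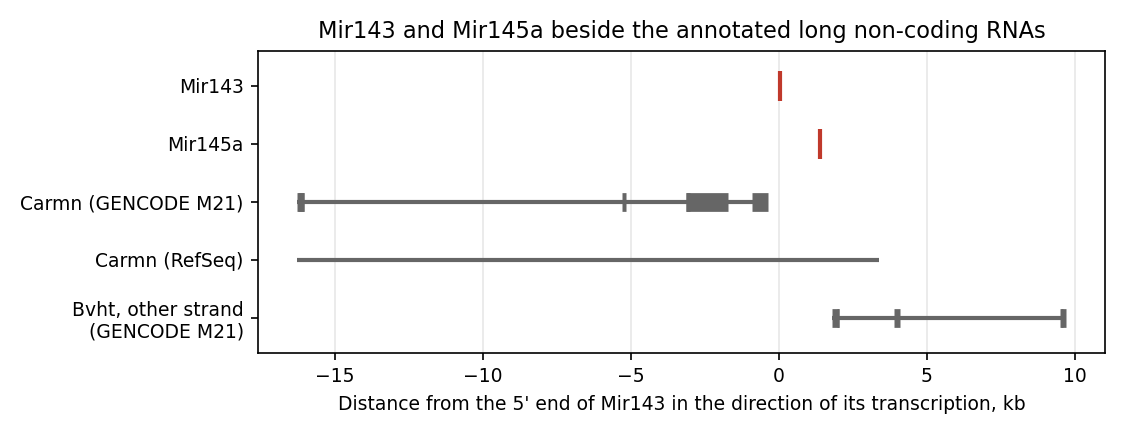
Positions of Mir143, Mir145a, Carmn and Bvht as distance in kb from the 5′ end of Mir143, positive in its direction of transcription; thick boxes are exons, drawn for GENCODE M21. Carmn stops 366 bases short of Mir143 in GENCODE M21 and extends 1947 bases beyond Mir145a in RefSeq.

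Among the counted hairpins and the annotated transcripts, both hairpins have sequence of their own. The rest of the genome was not searched. No stretch of 20 bases in either was found in another counted hairpin, on either strand, whereas 94 of the 340 detected genes (at least 10 counts in each library) have such a stretch. The search also finds genes annotated on the opposite strand of the same place, as Gm25301 is for Mir378a. Such a stretch is therefore not always a second copy. None was found in any other gene among the 141767 GENCODE M21 transcripts either. The longest stretch that Mir145a shares with another counted hairpin is 17 bases, with Mir145b, a gene of similar name on the same chromosome (69022199 to 69022273, minus strand). Mir145b had 1 count in replicate 2 and 0 in replicate 1, below the 3 counts that a count of 0 allows. Mir143 shares at most 11 bases with another hairpin and 5 with Mir145a, so the members do not resemble each other in sequence although they are neighbours.

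The hairpins are compact. The median length of the detected genes was 83 bases, and Mir143 was among the shortest, with 15 detected genes shorter than its 63 bases. Its GC content was 55.6%, against a median of 50.6%, and its predicted folding energy was -0.586 kcal/mol per base, against a median of -0.434. Only 23 of the detected genes were predicted to fold more stably per base. Mir145a was ordinary in both, with 48.6% GC and -0.433 kcal/mol per base.

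Mature sequences are shown for the comparison microRNAs against which the members are set below, as listed in RefSeq (GRCm38.p6) and read 5′ to 3′. Capitals mark the seed, bases 2 to 8, through which a microRNA finds its targets. The endothelial miR-126a and the injury-responsive miR-21a have different seeds, and miR-221 and miR-222, which promote smooth muscle proliferation, share one.
mmu-miR-126a-3p: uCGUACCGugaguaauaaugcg
mmu-miR-21a-5p: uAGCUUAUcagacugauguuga
mmu-miR-221-3p: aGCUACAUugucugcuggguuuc
mmu-miR-222-3p: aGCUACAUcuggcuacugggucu

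The libraries held 6305782 reads on the strand of a microRNA gene in replicate 2 and 3748432 in replicate 1. These were 37.0% and 42.4% of all reads, because reads with several mapping positions (48.1% in replicate 2, 36.8% in replicate 1) and unmapped reads were given to no gene. Levels below are counts scaled to a gene-strand total of 1000000 (CPM). Intervals from counts cover counting error only, since amplified reads are not independent molecules. Replicate 2 is the deeper library and has the smaller counting error. SDs are over the 2 libraries (n = 2).

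Mir143 was one of the most abundant microRNAs of the heart libraries and Mir145a an intermediate one, among reads given to a gene; ranks are uncertain for genes with near-identical copies. Mir143 had 324070 reads in replicate 2 and 163353 reads in replicate 1. In replicate 2 this came to 51393 CPM, or 5.14% of all microRNA counts, with an exact 95% interval of 5.12% to 5.16%. In replicate 1 it came to 43579 CPM, or 4.36%, with an interval of 4.34% to 4.38%. It ranked 5th of the 2202 genes in replicate 2, and 7th in replicate 1 and by its mean of 47486 ± 5525 CPM. Scaled per 10 bases of annotated gene, its level was 8158 CPM in replicate 2 against 6917 CPM in replicate 1, and its rank by the mean was 6. Short RNA reads need not scale with annotated length, so all levels and folds per base depend on the lengths annotated.

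Mir145a had 12109 reads in replicate 2 and 4539 reads in replicate 1. Its level in replicate 2 was 1920 CPM, or 0.192% of counts, with an exact 95% interval of 0.189% to 0.195%. Its level in replicate 1 was 1211 CPM, or 0.121%, with an interval of 0.118% to 0.125%. It ranked 51 in replicate 2 and 68 in replicate 1, and 58 by its mean of 1566 ± 502 CPM. Per 10 bases it reached 274 CPM in replicate 2 against 173 CPM in replicate 1. Of the counts on the members, nearly all were therefore from the upstream gene.

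Every read on the members lay on their own strand. The opposite strand had 0 reads at Mir143 and 0 at Mir145a in each library, which allows up to 3 reads. The counts for both strands together were identical to those of the gene strand, 324070 and 163353 at Mir143 and 12109 and 4539 at Mir145a. No read was thus lost to a gene on the other strand, unlike at Mir378a, the microRNA 249924 bases away that led the libraries, whose count of 869257 in replicate 2 became 0 when both strands were counted.

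The locus stood almost alone on its chromosome apart from Mir378a. Among the 57 counted microRNA genes of chromosome 18, 9 were detected. Mir143 and Mir145a took 27.8% of their counts in replicate 2 and 24.4% in replicate 1. With Mir378a left out, they took 99.5% in replicate 2 and 99.3% in replicate 1. Within 1000000 bases of the cluster, the other annotated microRNA genes (Mir5107, Mir7220, Mir6982, Mir6983 and Gm25301) had between 0 and 4 counts in either library.

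The upstream gene exceeded its partner by a wide and unequal margin. Mir143 had 26.8 reads for each read of Mir145a in replicate 2 and 36.0 in replicate 1, or 29.7 and 40.0 per base of annotated gene. Mir145a made up 3.60% of the counts of the pair in replicate 2, with an exact 95% interval of 3.54% to 3.67%. In replicate 1 it made up 2.70%, with an interval of 2.63% to 2.78%. The intervals do not overlap. On the log2 scale the ratio was 4.74 in replicate 2 and 5.17 in replicate 1, a difference of -0.43 (95% interval from counts -0.48 to -0.38). The difference passed Fisher's exact test, two-sided, with a Benjamini-Hochberg adjusted p of 1.21e-64 over all cluster pairs. This ratio is formed within a library and does not depend on scaling between libraries. The counts are per gene and do not separate the arms of a hairpin, so the ratio sets all reads of one hairpin against all reads of the other.

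Set among other neighbouring microRNAs, the imbalance was large and its shift between libraries was not. In all, 88 pairs of genes next to each other in the annotation lay on 1 strand at most 10000 bases apart, with both detected. Detected genes with an undetected one between them were not paired. Of the 88 pairs, 57 (64.8%) passed the same test between the libraries. A passed test was thus the usual case for a pair at this depth. The absolute mean log2 ratio of Mir143 to Mir145a, 4.96 ± 0.30, ranked 13 of 88, and the median pair had 2.52. Pairs in which a hairpin shares at least 20 bases with another hairpin were kept among the 88. Some of them ranked above the Mir143 pair, such as those of Mir199a-2, Mir29b-1 and Mir24-1. Levels of such hairpins are uncertain, and so are the rank and the median. Of the 88 pairs, 26 had an absolute mean log2 ratio above 4, and in 49 the upstream gene was the higher one, as here. The shift of 0.43 between the libraries was below the median shift of 0.55 and ranked 53 of 88.

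The pairs with the largest imbalance gave other examples of unequal neighbours. Mir377 to Mir541 had a mean log2 ratio of -7.45 ± 0.24, Mirlet7f-1 to Mirlet7d -7.42 ± 0.71, and Mir542 to Mir450-2 6.96 ± 0.72. Of these hairpins Mirlet7f-1 and Mir450-2 have stretches of 20 bases in common with further counted genes, which leaves their ratios uncertain. Among the 31 pairs in which neither gene belonged to another of the 88 pairs, the Mir143 pair ranked 7 by imbalance, against a median of 3.99. Hairpins with shared stretches leave this rank and median uncertain too. Genes of these pairs can still have a further detected gene nearby, beyond an undetected one.

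**Figure D2:**
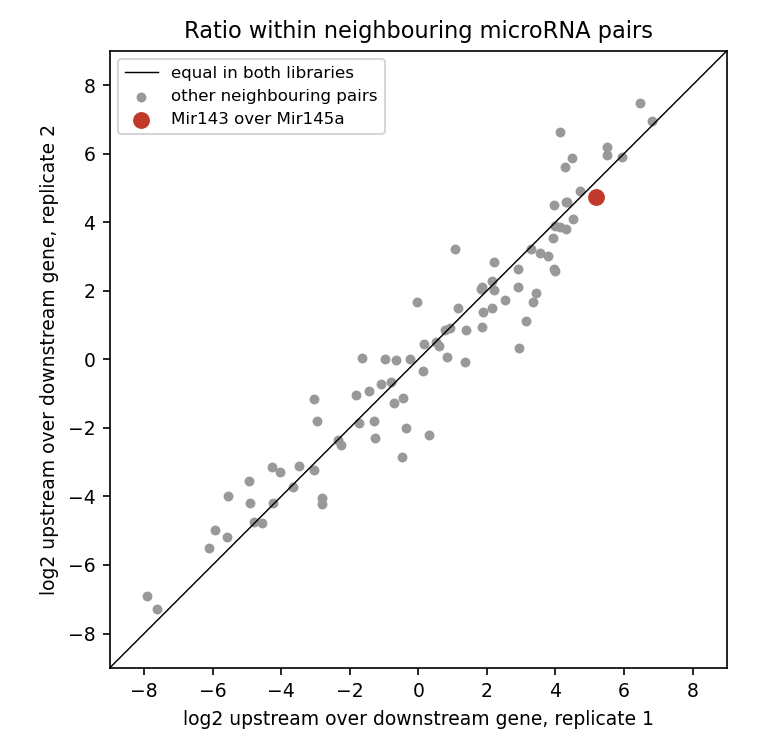
Log2 ratio of the upstream to the downstream gene in replicate 2 (vertical) and replicate 1 (horizontal) for 88 neighbouring pairs; the line marks equality. Mir143 over Mir145a sits at 4.74 in replicate 2 and 5.17 in replicate 1, far out along the line and close to it.

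Between the libraries, both members were higher in replicate 2. After TMM scaling, which aligns the bulk of the genes, Mir143 was 1.30-fold higher in replicate 2 (log2 ratio 0.38, exact 95% interval 0.37 to 0.39) and Mir145a 1.75-fold higher (log2 ratio 0.81, interval 0.76 to 0.86). By an exact two-sided binomial test with Benjamini-Hochberg adjustment over the 340 detected genes, the adjusted p was 1.63e-243 for Mir145a and too small to be represented by the software for Mir143. Of all detected genes 245 (72.1%) passed that test, 34.1% of all as higher in replicate 2 and 37.9% as lower. Passing it sets neither member apart.

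By size, the members sat within the usual spread of these libraries. The median absolute log2 ratio of the detected genes was 0.54, above the 0.38 of Mir143 and below the 0.81 of Mir145a. In order of absolute log2 ratio Mir143 ranked 210 of 340 and Mir145a 108. Among the 8 other genes within 2-fold of the mean CPM of Mir143, 3 had a larger absolute log2 ratio and their median was 0.34. Among the 42 genes within 2-fold of Mir145a, 11 had a larger one and their median was 0.41. Mir143 was thus about as even as other abundant genes, and Mir145a less even than most genes of its level.

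**Figure D3:**
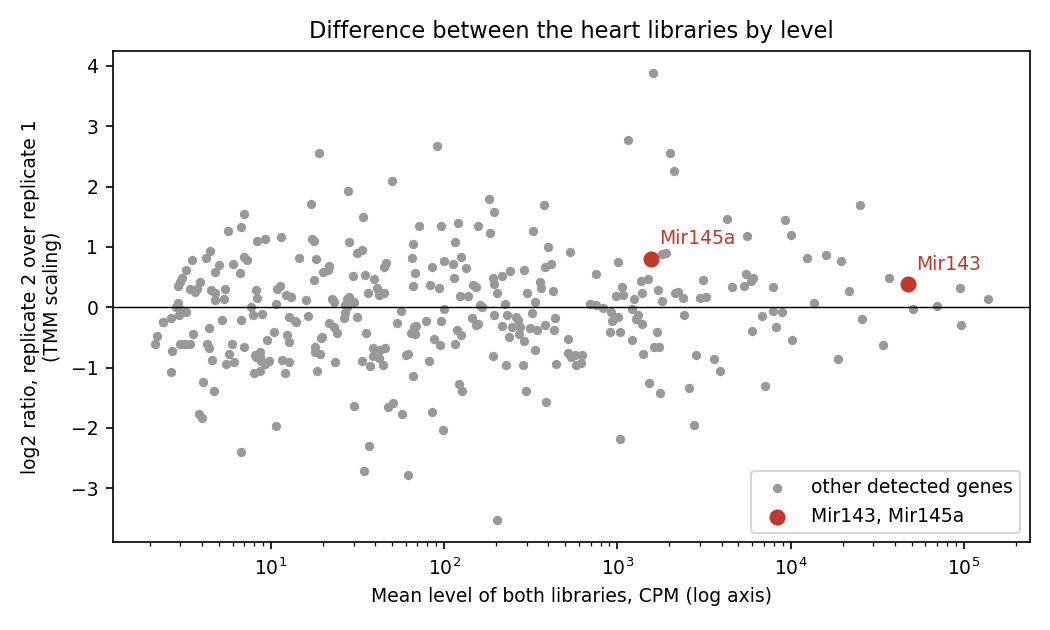
Log2 ratio of replicate 2 over replicate 1 after TMM scaling against mean CPM (log axis) for 340 detected genes, one point each. Mir143 at 0.38 and Mir145a at 0.81 lie above the zero line and inside the cloud of other genes.

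How much higher Mir143 was depended on what the libraries were scaled to. Its log2 ratio ran from 0.24 with total microRNA counts to 0.63 with the upper quartile, and that of Mir145a from 0.67 to 1.06. As a share of all reads, those without a gene included, Mir143 took 1.90% in replicate 2 and 1.85% in replicate 1, a log2 ratio of 0.04. On that scale Mir145a took 0.0711% and 0.0514%, a log2 ratio of 0.47, where the median gene had -0.39. The share of reads with several mapping positions differed in the same direction (48.1% in replicate 2, 36.8% in replicate 1), and its part in these ratios was not tested. Scaling moves every gene by the same amount. The median log2 ratio of the detected genes was -0.05 under TMM, -0.19 with total counts and 0.20 with the upper quartile. Relative to that median Mir143 was higher by 0.43 and Mir145a by 0.86 under any of these. Both members were called higher in replicate 2 under all 6 scalings tried. Of all detected genes, 20.3% (all reads) to 43.2% (upper quartile) were called higher there, depending on the scaling. Since a scaling moves every gene alike, the 6 calls of a member are not independent of each other.

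**Figure D4:**
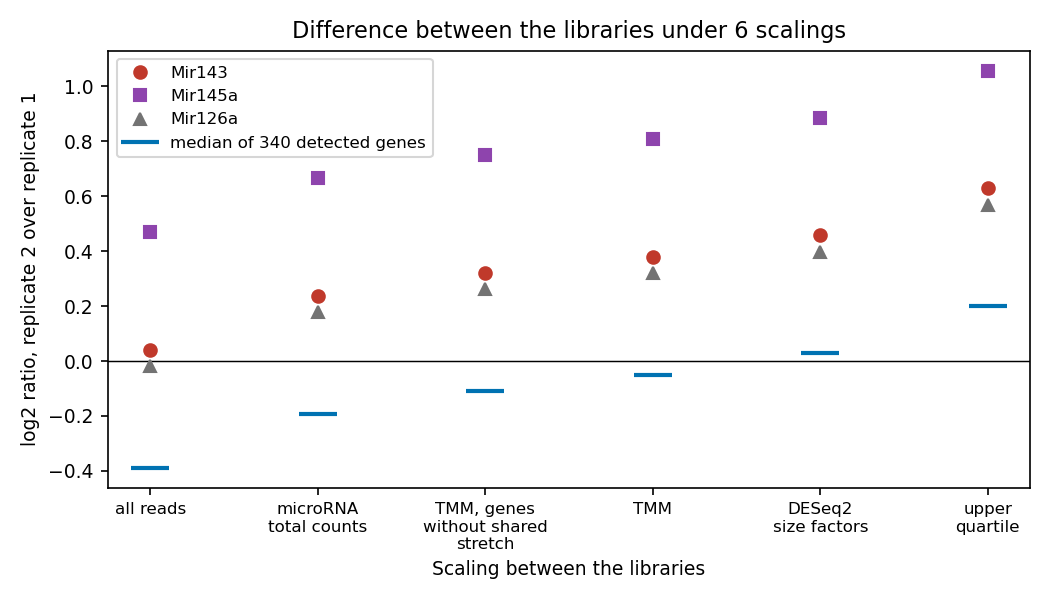
Log2 ratio of replicate 2 over replicate 1 for Mir143, Mir145a and the endothelial Mir126a under 6 scalings, with the median of 340 detected genes as a bar. Mir145a lies above Mir143 at each scaling, and Mir143 comes down to 0.04 when all reads are the base.

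Against the leading microRNA of the vessel lining, Mir143 held nearly the same proportion in each library. Mir126a, from the endothelial gene Egfl7, had a level per base 1.69 times that of Mir143 in replicate 2 and 1.76 times in replicate 1. Its hairpin shares at least 20 bases with that of Mir126b, which had 1 count in replicate 2 and 3 in replicate 1. The log2 ratio of Mir143 to Mir126a differed by only 0.06 between the libraries (95% interval from counts 0.05 to 0.07). Mir145a did not keep that proportion, with a difference of 0.49 (0.44 to 0.54). Between the libraries, Mir126a and Mir222 had a log2 ratio of 0.32 under TMM and Mir221 -0.80, against 0.38 for Mir143. Closeness to Mir143 is not particular to the endothelial list, since Mir23b outside it had 0.35. The endothelial list of 4 genes took 10.1% of counts in replicate 2 and 8.97% in replicate 1, and Mir143 and Mir145a together 5.33% and 4.48%. Of the endothelial list 3 genes were detected, 2 called higher and 1 lower in replicate 2 under TMM. With all reads as the base no gene of it was called higher, and Mir126a turned to -0.02. Over all detected genes the shares were 34.1% higher and 37.9% lower under TMM, and 20.3% and 51.2% with all reads.

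Against the leading genes of the other lists, the ratio of Mir143 differed between the libraries by varying amounts. Per base, Mir143 was 8.54 times the level of the cardiac muscle gene Mir499 in replicate 2 and 14.9 times in replicate 1. It was 12.2 times the level of Mir21a, often raised in activated fibroblasts, in replicate 2 and 25.7 times in replicate 1. It was 7.12 times the level of the red cell gene Mir451a, whose hairpin shares sequence with Mir451b, in replicate 2 and 5.19 times in replicate 1. On the log2 scale these ratios differed by -0.80, -1.07 and 0.46 between the libraries. These are ratios to single genes, and other genes of a list can differ the other way: Mir208a of the cardiac list had a log2 ratio of -1.34 between the libraries, and Mir144 of the erythroid list 0.66, against 0.38 for Mir143. In the cardiac list 4 of 7 hairpins, those of the Mir1a and Mir133a genes, share at least 20 bases with another hairpin. Their levels are uncertain, so Mir499 leads that list only among reads given to a gene. Of the detected genes, 4 of 6 in the cardiac list, 3 of 3 in the fibroblast list, 1 of 3 in the erythroid list and 3 of 5 in the leukocyte list had a log2 ratio above that of Mir143, as did 94 of all 340. The leukocyte gene Mir155 stood far below, with Mir143 at 44.5 times its level in replicate 2 and 31.4 times in replicate 1. Mir145a crossed Mir155 in order, at 1.497 times its level in replicate 2 and 0.786 times in replicate 1. The liver gene Mir122 and the skeletal muscle gene Mir206 were lower still, at 77.7 and 19.5 CPM in replicate 2, against 57.9 and 26.9 CPM in replicate 1. The 6 neural genes had 2 counts between them in either library, fewer than the 3 that a count of 0 allows, and 4 of them were at 0 throughout. Each neural hairpin has a stretch of 20 bases in common with some other hairpin, so that these low counts say little about their level.

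**Figure D5:**
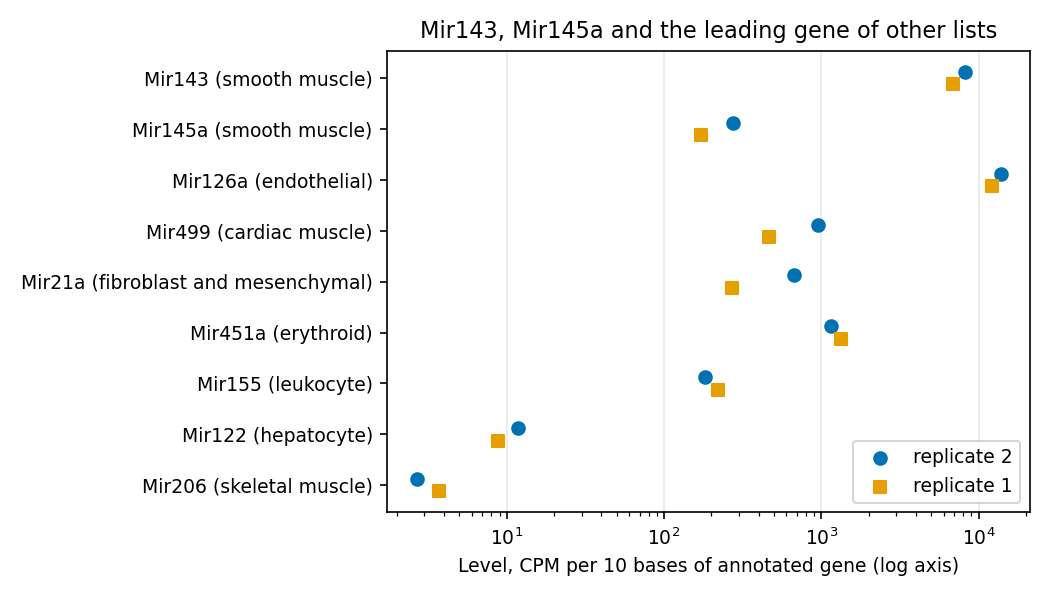
Level in CPM per 10 bases of annotated gene (log axis) of Mir143, Mir145a and the most abundant gene of 7 other lists, with circles for replicate 2 and squares for replicate 1. Mir143 lies below Mir126a and above the leading muscle, fibroblast, red cell and leukocyte genes in each library, while Mir145a lies near Mir155. Leading genes are those among reads given to a gene, and the Mir1a and Mir133a levels of the cardiac list are uncertain. The annotated length of each gene enters this scale.

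A list of other microRNAs known to act on the smooth muscle phenotype was set beside the members. Of the 15 genes of that list 13 were detected, 6 called higher and 4 lower in replicate 2, with a median log2 ratio of 0.32 against -0.05 for all detected genes. Over all detected genes 34.1% were higher and 37.9% lower. With the upper quartile 8 of the list were higher and 3 lower, against 43.2% and 24.7% of all detected genes. With total counts 4 were higher and 4 lower, against 28.5% and 42.9%, and nothing particular to the list is read from these counts. In that list 9 hairpins share at least 20 bases with another, and their levels are uncertain. Mir21a, which is raised in injured vessels, reached 6146 CPM in replicate 2, against 2474 CPM in replicate 1. Mir221 was lower in replicate 2 (log2 ratio -0.80), with 388 CPM there against 744 CPM in replicate 1, while its cluster partner Mir222 had 43.5 and 38.4 CPM. Mir10a, linked to smooth muscle differentiation, stood at 1514 CPM in replicate 2, against 1241 CPM in replicate 1. Mir31 was the least even of the 13 detected genes of the list, at 29.3 CPM in replicate 2 against 375 CPM in replicate 1. In the muscle-specific cluster of Mir1a-2 and Mir133a-1, Mir1a-2 had 628 counts in replicate 2, against 162 in replicate 1, and Mir133a-1 had 27, against 10.

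The genes nearest to each member in level over the 2 libraries were found by distance on the log2(CPM + 1) scale. For Mir143 they were Mir23b, Mir99a and Mir23a, of which Mir23b and Mir23a share at least 20 bases with each other. Mir23b almost coincided with it, at 51212 CPM in replicate 2 against 44229 CPM in replicate 1, a distance of 0.02, and the difference between their means was smaller than the SD of either. Mir23a, next below in rank at 37164 ± 6264 CPM, lay at a distance of 0.51. For Mir145a the nearest were Mir214, Mir20a and Mir10a, at distances of 0.24, 0.28 and 0.34. Mir301 and Mir34a flank Mir145a in mean rank but not in pattern, since Mir301 was at 2977 CPM in replicate 2 against 223 CPM in replicate 1, and Mir34a at 832 against 2203 CPM. With 2 libraries, this likeness is a description of level and no more.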

How the data were processed

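The deposited tables, 1 for each library, give raw counts of reads on microRNA genes in 3 columns (both strands, gene strand, opposite strand; meanings inferred from the values). The build was mm10 and the annotation GENCODE M21, per the file headers of the accompanying text. The aligner and the counter were not given in the sources used here. The gene-strand column was used, and the 4 lines that name no gene stayed out of library sizes and tests. They hold 63.0% of reads in replicate 2 and 57.6% in replicate 1.

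Libraries were scaled with TMM (edgeR 4.0.16). Detected genes (10 or more counts in each library) were tested with exact binomial tests and neighbouring pairs with Fisher's exact test (SciPy 1.17.1), adjusted by Benjamini-Hochberg at 0.05. Log2 ratios used a prior of 0.5 counts. TMM moved log2 ratios by 0.14 against total counts. Intervals of pair differences use the normal approximation to log counts. Alternatives were total counts, DESeq2 1.42.0 size factors, upper quartile, other filters, columns and distances. Hairpins came from GENCODE M21 transcripts and were folded with RNAfold 2.7.2. The planned search of the mm10 genome was replaced by a search of those transcripts. The procedure was run on simulated data with counting error only, which does not bear on further spread between replicates. Named genes are the members, the leading gene of each list, genes within 1000000 bases, the 3 nearest in level, rank neighbours and the 3 most unequal pairs; other list genes were named after their values were seen. Members and lists were chosen with earlier results of these data known.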

Additional observations from a re-analysis of the deposited data

How the results depend on the processing

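No paired analysis was possible because the libraries form 1 group. Both members stayed higher in replicate 2, past the threshold, under every scaling, filter and column tried. The Mir143 to Mir145a ratio stayed lower in replicate 2, past the threshold, under every filter, column and distance tried. Filters, distances and the column for both strands leave the members' own counts unchanged, so the ratio could not move with them. Only the set of pairs in its adjustment changed, and scaling does not enter it. Filters on counts likewise could not move the log2 ratio of either member. The difference of Mir143 ran from a log2 ratio of 0.04 (all reads) to 0.63 (upper quartile) and that of Mir145a from 0.47 to 1.06. Scaling by all reads and TMM over genes that share no stretch were added after seeing the data. Calls over all genes split into 116 higher and 129 lower under TMM, 147 and 84 under the upper quartile, and 69 and 174 with all reads. The mean level of Mir143 moved to 65180 CPM with the column for both strands, 18757 per 1000000 reads of any kind, and 77938 per 1000000 counts of genes that share no stretch. Mir145a moved to 2152, 612 and 2578 in the same order. With 2 libraries, leaving out a replicate only returns the value of the other and is no test of stability. These values were 43579 to 51393 CPM for Mir143, 1211 to 1920 CPM for Mir145a, and 4.74 to 5.17 for their log2 ratio. Depth limits neither member, and 2 libraries limit every statement on spread.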
